A study of Rattus norvegicus with 59 samples.

Results

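The histone mark H3K9me2 in cardiomyocyte nuclei of treadmill-trained rats was compared with that of untrained control rats over 6171 genomic bins. These are all the H3K9me2 bins of the training experiment, out of 15874 bins given for H3K9me2 and H3K27me3, and none was left out. The bins covered the 20 numbered chromosomes 1 to 20, and were described by chromosome, by length and by signal density, which is the level in log2 RPM (reads scaled to the depth of the library) minus log2 of the bin's length in kb. The difference is given as exercise minus control on the log2 RPM scale throughout, so a difference of 1 is a doubling.

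The trained group came from male Sprague Dawley rats of about 280 g that ran on a treadmill for 6 weeks, on 6 days a week. A session held 12 intervals of 8 min with 2 min of rest between them, at an incline of 25 degrees and a first speed of 15 m per min. The control group came from rats of the same strain, sex and weight that were not assigned to exercise. The other experiment, whose values are set beside these, used male Sprague Dawley rats of about 170 g with a banded ascending aorta or a sham operation. In all these groups, nuclei of the left ventricle were sorted on PCM1, a centriolar satellite protein used to mark the nuclei of cardiomyocytes. Chromatin was cut with micrococcal nuclease and precipitated with an antibody to H3K9me2. Each group had 4 such samples, and the labels do not say in words that each came from a separate animal. The values of a group were deposited as 1 number per bin, so there is no replicate check, no test could be run, and bins are not replicates. The bins carry no gene names, so the purity of the sorted nuclei could not be checked against marker genes here.

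H3K9me2 is dimethylation of lysine 9 on the tail of histone H3. It is laid down mainly by the methyltransferases G9a and GLP, is removed by demethylases of the KDM3 family, among others, and is associated with silent chromatin that forms broad domains, many of them at the nuclear periphery. H3K27me3, the mark set beside it below, is laid down by Polycomb repressive complex 2 and is likewise associated with gene repression. Bins with a high density are therefore stretches where precipitated reads were crowded, and sparse bins are stretches with few such reads for their length. Bins of the size used here can span many genes, and the level of a bin is the sum over all of it.

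The 2 columns held nearly the same set of values in a different order. When both were sorted, no pair differed by more than 0.022 log2 RPM and 99.9% of the pairs lay within 0.01. The 4 H3K9me2 columns of both experiments matched in the same way, to within 0.027. A difference in a bin therefore shows that the bin took another rank among the bins of its group, and a gain or loss of H3K9me2 over the whole genome cannot show in these values. The rank of a bin moved by a median of 63 places among 6171.

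The depth behind the columns could be estimated from ties. Over all bins there were 3458 distinct values in control and 4221 in exercise. Low values fell on a limited set of steps. Between 4 and 5 log2 RPM, 1000 bins fell on 285 distinct values in control, and 1002 bins on 439 in exercise. If each of these steps is 1 whole read count, control held about 18.4 reads per RPM and exercise about 31.9. Over other windows of the scale the estimates ran from 17.8 to 19.3 in control and from 30.8 to 34.0 in exercise. The sham and banded columns came to 56.8 and 51.6 reads per RPM, with windows from 51.9 to 60.4 and from 46.9 to 53.2. Control was the shallowest of the 4 columns on this estimate, and counting errors below are derived from it. They cover counting only, not the spread between animals or preparations.

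Bins ran from 20 to 14740 kb, with a median of 190 kb and quartiles of 100 and 420 kb. Levels ran from 2.42 to 12.57 log2 RPM and followed length closely (Pearson r = 0.953 over bins in control). The longest bin, on chromosome 2 from 62435001 to 77175001, held 12.35 log2 RPM in control, exercise, sham and banded alike. Among the 540 bins of 1 Mb or more, 48 had the same value in control and exercise, as had 62 of all bins. Equal values were thus found mainly among the longest bins, which hold the top ranks in each column.

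The difference was centred on 0. It was above 0 in 3092 bins and below 0 in 3017 bins, with a median of 0.00024, a median size of 0.058, and a 5th and 95th percentile of -0.16 and 0.15. By length, 47.4% of the covered sequence lay in bins that were higher with training and 43.6% in bins that were lower. Control and exercise correlated with r = 0.998 over bins, a value carried by the range of bin lengths.

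Past 0.5, 0 bins (0%) were higher and 3 bins were lower, 0.0486% of all. Past 0.25, 38 bins were higher (0.616%) and 64 were lower (1.04%). These 102 bins (1.65% of all) lay on 18 of the 20 chromosomes, and chromosomes 12 and 16 held none. They were mostly short: 24 of the 38 higher bins and 52 of the 64 lower bins were under 100 kb, against 1491 of all 6171 bins. Bins under 100 kb also had the largest SD of the difference (0.125) and counting error (0.093) among the classes of length. The part of these in the counts was not tested. The 38 higher bins had a median length of 70 kb and a median density of -1.80. The 64 lower bins had 50 kb and -0.89, against a density of -1.39 over all bins. Bins past 0.25 thus stood on both sides of the typical density, the higher ones sparser and the lower ones denser.

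Spread over bins shrank as the reads in a bin grew. In the 10% of bins with the lowest levels, from 5.92 to 20.7 RPM, the difference had an SD of 0.137, and the estimated counting error was 0.113. In the 10% with the highest levels, the SD was 0.045 and the counting error 0.018. The spread was thus close to the counting error in bins with few reads and more than it in bins with many. In all, 1669 bins (27%) differed by more than 2 counting errors, and so did 96 of the 102 bins past 0.25. Those 102 were picked by size, and the counting error was 0.113 even in the lowest 10%. Passing 2 counting errors therefore largely followed from that choice.

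**Figure D1:**
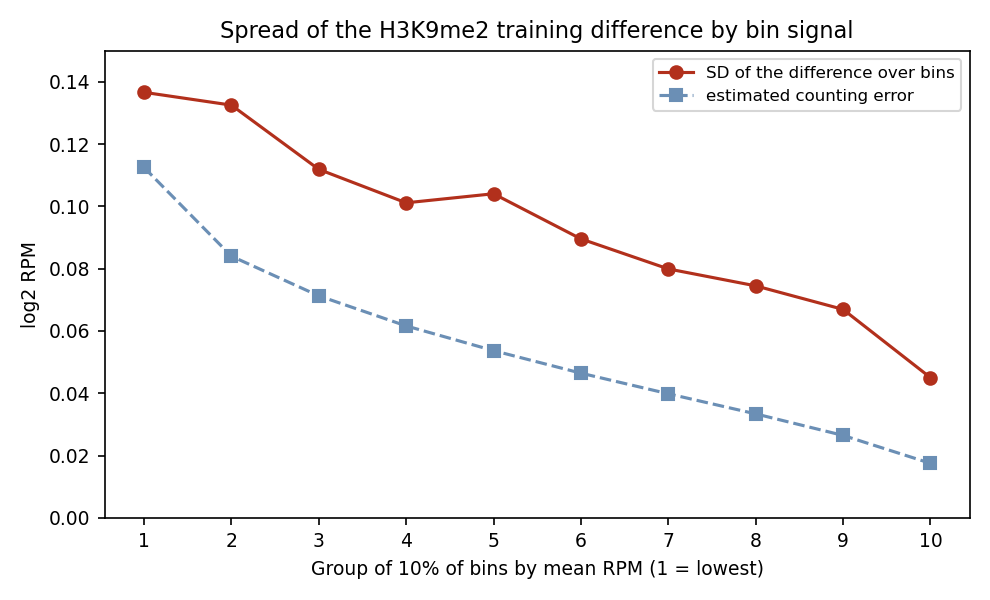
SD over bins of the H3K9me2 difference between exercise and control (red circles, log2 RPM) and the counting error estimated from tied values (blue squares), for 10 groups of bins from the lowest to the highest mean RPM. From the left end to the right end they go from 0.137 and 0.113 to 0.045 and 0.018, and the SD stays above the counting error in each group.

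The 3 bins past 0.5 did not form a group by position. The bin on chromosome 5 from 133955001 to 134525001, 570 kb long, held 5.42 log2 RPM in control and 3.79 in exercise. That is 42.9 RPM against 13.9 RPM, a difference of -1.63, with a counting error of 0.086. It had the lowest density of all 6171 bins, -4.55, so it is a long stretch with very few H3K9me2 reads. In the other experiment the same bin held 6.44 in sham and 7.20 in banded, a difference of 0.76 in the opposite direction. All 4 groups thus held different levels, with exercise the lowest and banded the highest. The bin before it, which ends at 133895001, differed by -0.0010, and the short bin after it, from 134605001 to 134705001, by -0.20. The low value thus had no match of its size in either neighbour. H3K27me3, measured in other precipitations of the same groups, was also lower there: its bin from 133995000 to 134525002 held 4.72 in control and 3.43 in exercise, a difference of -1.28. This stretch was the one bin past 1 in the training comparison of each mark (0.0162% of H3K9me2 bins and 0.0103% of H3K27me3 bins).

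On chromosome 15, the bin from 29065001 to 29425001 held 6.45 log2 RPM in control and 5.64 in exercise. Its difference was -0.81, with a counting error of 0.051. The next bin, from 29485001 to 32255001, is 2770 kb long and differed by -0.29 with a counting error of 0.019, from 9.03 in control to 8.74 in exercise. The bin before, which starts at 27765001, differed by -0.019. The 70 kb bin that follows, from 32255001 to 32325001, differed by -0.12. Lower values here thus ran on over neighbouring bins and grew smaller away from the first. Banding gave lower values in the same bins, by -0.27 and -0.14. The H3K27me3 bin over the whole stretch, from 27765000 to 32255002, differed by -0.087 with training.

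The bin on chromosome 4 from 101395001 to 101525001 held 4.07 log2 RPM in control and 3.50 in exercise. Its difference was -0.57, with a counting error of 0.11, and its density of -3.24 was low. H3K27me3 was higher in exercise in this bin, from 2.51 in control to 3.25 in exercise, a difference of 0.75, which was the highest of all 9703 H3K27me3 bins. Banding gave 5.09 in sham and 5.28 in banded, 0.19 higher. The H3K9me2 bins on either side differed by -0.16 and 0.026 with training.

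Of the 540 bins of 1 Mb or more, 5 were past 0.25 and lower in exercise and 0 were past 0.25 and higher, and the highest difference among them was 0.16. The lower ones are 0.926% of the long bins, close to the 1.04% among all bins. This group was singled out after its values were seen. On chromosome 13, the bin from 27035001 to 28625001 held 8.53 in control and 8.10 in exercise, a difference of -0.43. A second bin on chromosome 13, from 28915001 to 30525001, held 9.12 and 8.84, a difference of -0.28. The 270 kb bin between them, from 28645001 to 28915001, differed by -0.14, and the bin after them, from 30525001 to 30855001, by -0.11. The 13930 kb bin before them had the same value of 12.27 in both groups. The first bin of chromosome 13, which ends at 1305001, held 8.30 in control and 7.91 in exercise, a difference of -0.39. On chromosome 9, the bin from 365001 to 1515001 held 8.66 and 8.35, a difference of -0.31, and the bins on either side differed by -0.083 and -0.11. The remaining one is the 2770 kb bin on chromosome 15 given above. Their counting errors were 0.019 to 0.025, far under the differences. With banding, the 4 bins on chromosomes 9 and 13 were higher by 0.075 to 0.13, and the one on chromosome 15 was lower.

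The highest difference with training belonged to a 250 kb bin on chromosome 3 from 138025001 to 138275001. It held 6.50 log2 RPM in control and 6.97 in exercise, 90.5 RPM against 125 RPM, a difference of 0.47 with a counting error of 0.042. Sham and banded held 7.02 and 7.06, a difference of 0.045. The bins on either side differed by -0.11 and -0.020, so the higher value was limited to this bin, and H3K27me3 over it was higher by 0.25. The other 9 of the 10 bins with the highest differences were all under 100 kb. Next in order were a 40 kb bin on chromosome 15 from 61505001 to 61545001 (2.60 in control, 3.04 in exercise, difference 0.43) and a 40 kb bin on chromosome 14 from 83945001 to 83985001 (2.90 and 3.32, difference 0.43). Their counting errors were 0.16 and 0.15. These 3 bins were the nearest to 0.5 among those that did not reach it, and on the other side the nearest was the chromosome 4 bin at -0.57.

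Among the 10 bins with the lowest differences, 5 were under 100 kb, and they lay on chromosomes 1, 3, 5, 6 and 20. The one on chromosome 20, 40 kb long from 49755001 to 49795001, was the densest of these 5, at -0.40. It held 5.13 in control and 4.72 in exercise, a difference of -0.41 with a counting error of 0.076, and with banding it was higher by 0.33. The other 4 had counting errors of 0.12 to 0.15 and levels of 3.16 to 3.69 in control. The densest bin of all, on chromosome 1 from 215545001 to 215605001, differed little: it held 6.80 in control and 6.85 in exercise, against 3.82 in sham and 4.19 in banded. Its level was thus several times higher in both groups of the training experiment than in both groups of the banding experiment.

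Most bins of high density were lower in exercise and most of low density were higher. When bins were ordered by their mean density over control and exercise and split into 10 equal groups, the median difference was 0.072 in the sparsest group, 0.055 in the next and 0.047 in the one after. It was 0.023, 0.013, 0.0050 and -0.0045 in the 4 groups that followed. In the 3 densest groups it was -0.022, -0.051 and -0.083. The medians thus fell at each step from the sparsest to the densest group. The share of bins lower in exercise was 25.2% in the sparsest group and 88.7% in the densest. Of the 64 bins lower by more than 0.25 (1.04% of all), 31 were in the densest group, and that group held 0 of the 38 higher ones. The sparsest group held 10 of the lower and 11 of the higher ones. The 3 bins past 0.5 and the 5 long bins past 0.25 went against these medians, since all were lower and all had a density below the median of -1.39.

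A straight line through all bins had a slope of -0.085 log2 RPM per unit of log2 density (Pearson r = -0.40, Spearman rho = -0.48, n = 6171 bins). Both quantities come from the same 2 columns, bins share the libraries and depth of their group, and base composition was not available. The slope was below 0 in each of the 20 chromosomes, from -0.15 on chromosome 20 to -0.036 on chromosome 5, the chromosome with the outlying sparse bin. Within the sparsest 10% of bins the slope was 0.13, so the line did not hold at that end. That group also holds the outlying chromosome 5 bin, and its slope without that bin was not computed. A slope below 0 on the mean of both columns goes with a smaller SD of density in exercise, so the SDs here restate the slope. Densities of bins lay closer together in exercise than in control. Density had an SD of 0.482 in control and 0.443 in exercise, and its 10th and 90th percentiles were 1.21 apart in control and 1.09 in exercise.

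**Figure D2:**
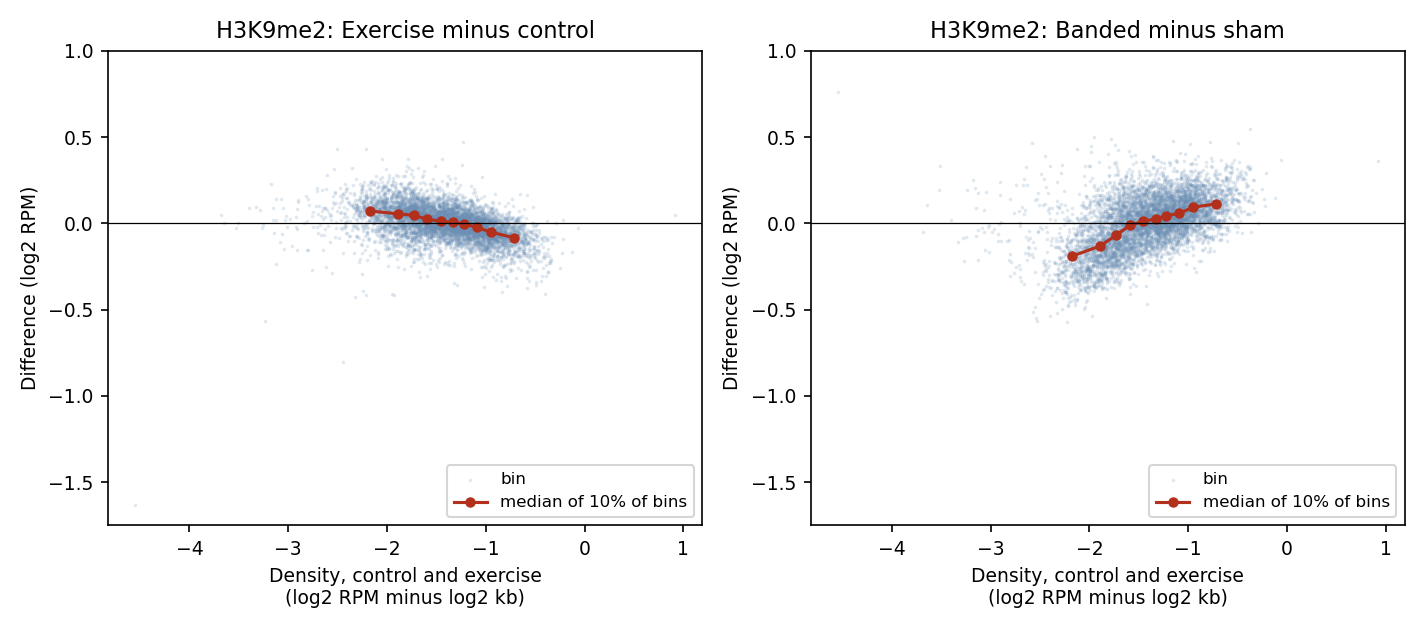
H3K9me2 difference per bin (log2 RPM, y axis) against signal density in control and exercise (log2 RPM minus log2 kb, x axis), for training on the left and banding on the right. Blue points are bins and red points are medians of 10 groups of bins, which run from 0.072 down to -0.083 with training and from -0.19 up to 0.11 with banding.

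The gradient depended on which samples ordered the bins. Ordered by density in the sham group of the other experiment, the slope was 0.066, the opposite sign, and the median difference was -0.021 in the sparsest 10% of bins and 0.038 in the densest. Ordered by density in the banded group, the slope was -0.022. Ordered by H3K27me3 density in control and exercise, it was -0.048, with medians of 0.044 in the sparsest 10% and -0.080 in the densest. Slopes are per unit of each density, and the densities differ in spread. Pearson r of the difference was 0.19 by sham, -0.066 by banded and -0.42 by H3K27me3 density, against -0.40 by the first order. By H3K27me3 density the gradient was thus about as strong as in the first order. Density in the training experiment correlated with sham density at r = 0.466, with banded density at r = 0.715 and with H3K27me3 density at r = 0.791 over the 6171 bins. Density in sham and banded had less spread, with SDs of 0.288 and 0.299. The estimated read depth also differed between the columns, lowest in control and higher in sham and banded than in exercise, and its part in the gradient was not tested.

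Bin length was linked to the difference less than density was. The 1491 bins under 100 kb had a median difference of -0.027 and 57.9% of them were lower in exercise. The 2169 bins of 100 to 250 kb had 0.0045 and 48.2%, and the 1237 bins of 250 to 500 kb had 0.012 and 43.5%. The 734 bins of 500 kb to 1 Mb had 0.0096 and 43.1%, and the 540 bins of 1 Mb or more had 0 and 46.9%. The shortest class was thus the one class with a median below 0. Its single bins had an SD of 0.125 and a counting error of 0.093.

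The density gradient was present within each length class and flattened in long bins. Among bins under 100 kb, the median difference went from 0.030 in the sparsest 20% to -0.11 in the densest 20%. Among bins of 250 to 500 kb it went from 0.074 to -0.055. Among bins of 1 Mb or more it went from 0.024 to -0.0046. The slopes were -0.11, -0.10, -0.085, -0.019 and -0.014 from the shortest class to the longest. The class of 500 kb to 1 Mb holds the outlying chromosome 5 bin, and its slope without that bin was not computed. Its medians went from 0.063 in the sparsest 20% to -0.014 in the densest 20%. The short dense bins were therefore the class that was lower most often, 87.9% of the 298 bins, and the sparse bins of 250 to 500 kb the least often, 18.1% of the 248 bins.

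**Figure D3:**
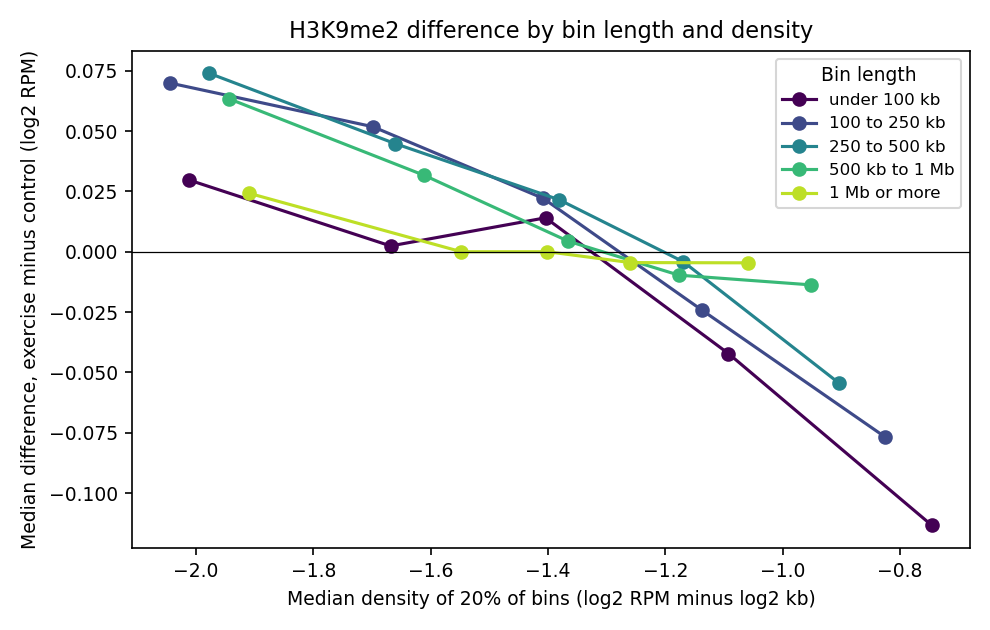
Median H3K9me2 difference between exercise and control (log2 RPM, y axis) against the median density of 5 groups of bins (log2 RPM minus log2 kb, x axis), with a line for each of 5 classes of bin length. Lines of the 3 shortest classes fall steeply, as from 0.074 to -0.055 for 250 to 500 kb, and the line for 1 Mb or more stays between 0.024 and -0.0046.

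By chromosome, median differences ran from -0.0086 on chromosome 3 to 0.036 on chromosome 12, with 12 chromosomes above 0 and 8 below. Single bins of a chromosome had an SD of 0.081 to 0.125, and whether the medians of chromosomes differ was not tested. On chromosome 12, 34.1% of 170 bins were lower in exercise, against 54.5% of 468 bins on chromosome 3. The summed signal of chromosome 12 was 16288 RPM in control and 16625 RPM in exercise, a log2 ratio of 0.029. Chromosome 12 kept a median of 0.029 after the density line was subtracted. Chromosomes 19 and 10 came next, with medians of 0.018 and 0.016. With banding, chromosome 12 had the lowest median, -0.061, and chromosome 10 had -0.037, but chromosome 19 had 0.011. Over the 20 chromosomes, medians with training and banding had Pearson r = -0.71 and Spearman rho = -0.39, and 12 chromosomes had medians of opposite sign.

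**Figure D4:**
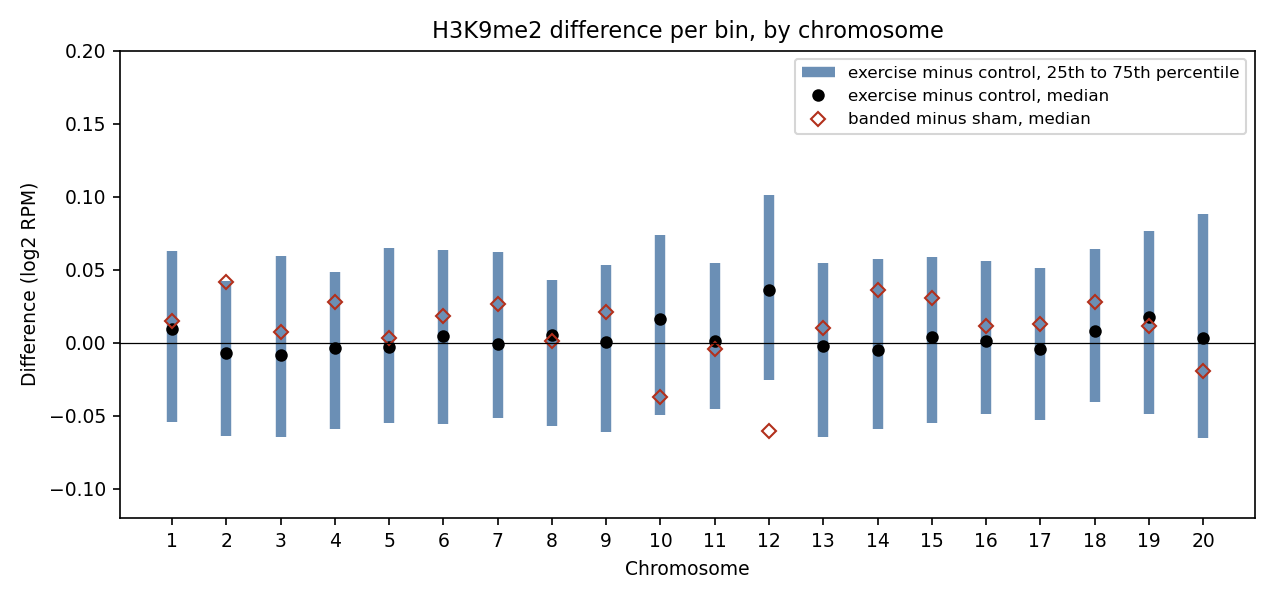
H3K9me2 difference per bin (log2 RPM, y axis) for chromosomes 1 to 20. Black circles are medians and blue bars the 25th to 75th percentile over bins for exercise minus control, and red diamonds are medians for banded minus sham. Chromosome 12 has the highest training median, 0.036, and the lowest banding median, -0.061.

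Differences of neighbouring bins along a chromosome were nearly unrelated. Neighbouring bins correlated at r = 0.037 (Spearman rho = 0.0078, 6151 pairs), and bins 2 apart at r = 0.087 (rho = 0.11). Banding, over the same bins, gave 0.32 and 0.31. Density itself had r = 0.011 for the next bin and 0.17 for bins 2 apart. The longest runs of neighbouring bins of 1 sign were 13 bins higher on chromosome 9 from 69605001 to 73425001 (median 0.058) and 13 bins lower on chromosome 2 from 57905001 to 61555001 (median -0.097). Runs of 12 lower bins lay on chromosome 14 from 21125001 to 29235001 (median -0.089) and on chromosome 20 from 49155001 to 55255001 (median -0.098). With banding, the 3 lower runs had medians above 0, at 0.058, 0.14 and 0.19, and the higher run on chromosome 9 had 0.048.

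Distance was taken from the ends of the binned span of each chromosome. The 223 bins within 2 Mb of an end had a median of -0.017 and 58.7% were lower in exercise. Bins at 5 to 10 Mb from an end, 556 in number, had a median of 0.020 and 41.2% were lower. The SD of single bins was 0.096 and 0.098 in these classes. With banding the same classes had medians of 0.086 and -0.021. With training, the medians were -0.00047 at 2 to 5 Mb, 0.0080 at 10 to 20 Mb and -0.0010 at 20 Mb or more. There was thus no steady trend with distance.

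Set beside banding, which shares no samples with training, the difference with training was smaller and often of the other sign. Banding gave 2 bins higher by more than 0.5 (0.0324%) and 7 lower (0.113%), 0.146% together. It gave 236 bins higher by more than 0.25 (3.82%) and 413 lower (6.69%), 10.5% of all bins against 1.65% with training, and its SD over bins was 0.154 against 0.098. Over all bins the 2 differences had r = -0.49 (Spearman rho = -0.51). In 2025 bins the level was higher with training and lower with banding, and in 2224 it was lower with training and higher with banding. It was higher with both in 1057 bins and lower with both in 783, so 68.9% of bins had opposite signs. Within the 10 groups of density, r ran from -0.47 to -0.21. Of the 38 bins higher by more than 0.25 with training, 31 were lower with banding, and of the 64 lower ones, 47 were higher. Among all bins, 2025 of the 3092 higher with training were lower with banding, and 2224 of the 3017 lower ones were higher. The share for the 64 lower bins was thus close to that of all lower bins. Banding had a slope of 0.17 on the same density, above 0 in each of the 20 chromosomes, from 0.13 to 0.21. Ordered by sham density, the banding slope was -0.10, and by banded density it was 0.17. The banding difference subtracts the sham column from the banded column, so each of these orders shares a column with it. Neither is a separate check on the sign. By H3K27me3 density in control and exercise, the banding slope was 0.058. The rats of the 2 experiments also differed in weight, the columns in estimated depth, and the first order used the training columns alone. These and the interventions cannot be told apart here.

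**Figure D5:**
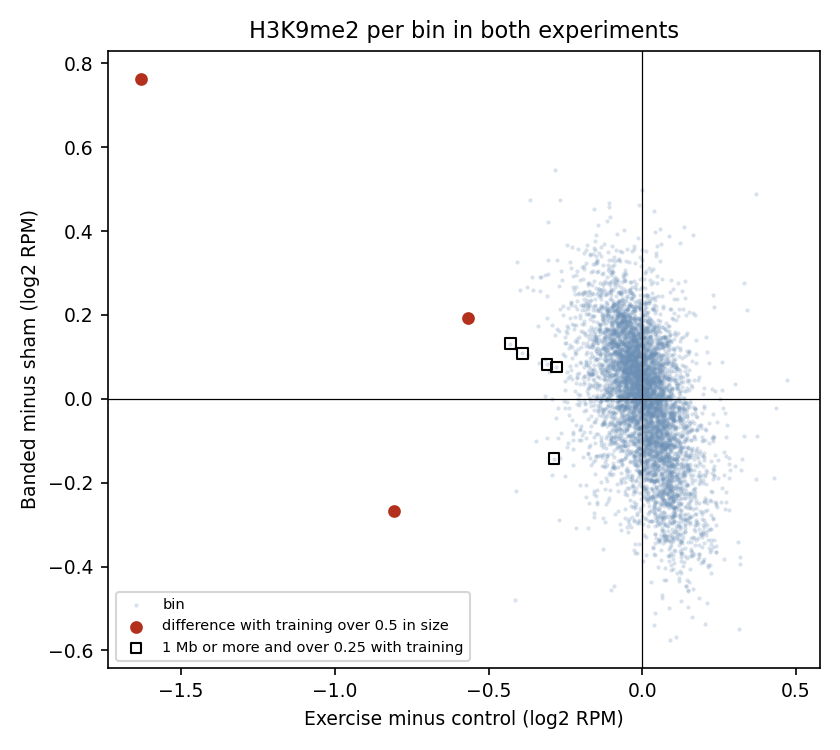
H3K9me2 difference per bin with training (x axis) and with banding (y axis), both in log2 RPM. Red points are the 3 bins past 0.5 with training and open squares the 5 bins of 1 Mb or more past 0.25. The cloud of 6171 bins slopes downwards (r = -0.49), and the point farthest to the left is the chromosome 5 bin at -1.63 with training and 0.76 with banding.

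H3K27me3 was given over bins of its own and was averaged over each H3K9me2 bin by overlapping length, which covered at least 80% of 6108 of the 6171 bins. With training, 8 of its 9703 bins were higher by more than 0.5 (0.0824%) and 4 were lower (0.0412%), 0.124% together. By more than 0.25, 92 were higher (0.948%) and 169 lower (1.74%), 2.69% together, and the SD was 0.109. Sorted control and exercise values of H3K27me3 matched to within 0.023, so these columns too show ranks. Over H3K9me2 bins, the differences of both marks had r = -0.38 (Spearman rho = -0.46), and 65.1% of bins had opposite signs. In the sparsest 10% of H3K9me2 bins, H3K9me2 had a median of 0.072 and H3K27me3 had -0.15, and in the densest 10% they had -0.083 and 0.011. H3K27me3 also had a slope of the other sign on its own density, 0.050, with medians of -0.10 in its sparsest 10% of bins and 0.022 in its densest. The 2 marks come from other precipitations of the same groups, and the densities of both had r = 0.79 over bins. Among the 102 bins past 0.25 for H3K9me2 (1.65% of all), 65 had opposite signs and 37 the same sign. The 5 long bins past 0.25 were lower in both marks, with H3K27me3 at -0.17, -0.13 and -0.051 for those on chromosome 13, -0.22 for that on chromosome 9 and -0.087 for that on chromosome 15. The chromosome 5 bin was lower in both by more than 1, and the chromosome 3 bin with the highest H3K9me2 difference was higher in both.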

How the data were processed

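Members, classes and named bins were chosen with earlier results of these data known. The authors deposited log2 RPM values per bin as 1 column per group, per the file headers. Per the file names, the authors drew the bins by circular binary segmentation. How the 4 samples of a group were combined, which samples set the borders, how the columns were normalized and which build was used were not given in the sources used here. Tools named without roles in the submitters' processing notes are edgeR, R 2.15.1, Bowtie and SAMtools. The sham and banded columns were the same in both deposited H3K9me2 tables (largest difference 0).

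No filter was applied. Differences, medians, least squares slopes and correlations were computed with scipy 1.17.1, numpy 2.4.6 and pandas 2.3.3 (Python 3.11.15), and matplotlib 3.10.9 drew the plots. Reads per RPM were estimated from the number of distinct values between 4 and 5 log2 RPM, and this step was tested on simulated data. Those data held 1 column of whole counts per group, so each step was 1 read by design. Whether this holds for columns that combine 4 samples could not be checked in this way. A slope was tested on the simulated data too, but on the true control density over unchanged bins. The slope on the mean density of both columns, as used here, was not tested in this way. Thresholds were 0.5 and 0.25. Named were bins past 0.5, the 10 highest and 10 lowest differences, 3 bins just under 0.5, the longest, densest and sparsest bins, and the most different bin of a chromosome. The 5 long bins and the runs were added. Orders by banded and by H3K27me3 density, ranks, and leaving out the chromosome 5 bin were added after seeing the data. The deposited RNA tables were not used, since their genes carry no positions, and no sequence is printed because no genome of the files' build was used.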

Additional observations from a re-analysis of the deposited data

Results flagged for a closer look

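The slope of the difference on density was -0.085 with training and 0.17 with banding over the same 6171 bins. It is listed because the 2 experiments went opposite ways, on each of the 20 chromosomes. Both signs depended on the order: by sham density the slope was 0.066 with training and -0.10 with banding. The sham column is also part of the banding difference, so the value of -0.10 does not come from a separate order. The chromosome 5 bin from 133955001 to 134525001 differed by -1.63 with training and by 0.76 with banding, and is listed for the same reason. With 1 value per group, neither difference between the experiments was tested.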

How the results depend on the processing

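With 1 value per group, the spread between animals is unknown, depth could only be estimated, and no sample could be left out. No paired analysis was possible because each group has 1 pooled column without replicate numbers. Of the 66 alternative values computed for the main results, 51 were counted as keeping their sign and lying within 1.5 times the value given above. That count includes alternatives that could hardly have moved a value, so it overstates how stable the results are. One rescaled both columns to the same total, but their totals were already nearly equal. Another subtracted the median difference, which was only 0.00024. Shifts in rank, given for chromosomes 12 and 3, are on another scale, so only their sign can be compared. The slope on density reversed to 0.066 when sham density ordered the bins, and the median of the sparsest 10% of bins minus that of the densest 10% went from 0.15 to -0.058. By banded density these were -0.022 and 0.027. The slope was -0.048 by H3K27me3 density, where the sparsest minus densest 10% was 0.12, and -0.048 when weighted by length. Adding 20.6 RPM before the logarithm gave a slope of -0.053, a sparsest minus densest 10% of 0.098, a median of 0.023 for chromosome 12 and a shortest minus longest 20% of bins of -0.015 in place of -0.029. The median of chromosome 3 weighted by length was 0. Without the 10% of bins lowest in RPM, neighbouring bins had r = 0.020. A threshold of 0.25 gave 64 lower and 38 higher bins, and a threshold of 1 gave 1 lower bin. The causes of these shifts were not tested. The 23 bins followed kept their sign under each alternative in which they were present, but these alternatives could not have changed it. The same amount added to both groups keeps the sign, and the others left the values nearly as they were. With the added 20.6 RPM, 16 of the 23 bins moved by over 1.5 times. The chromosome 5 and 4 bins were among these, at -0.88 and -0.23, and without the chromosome 5 bin the slope was -0.090.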
